A study of Mus musculus with 15 samples.

Results

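The comparison described here set 5 mice with intracerebral haemorrhage (ICH, bleeding into the brain tissue) that received Buyang Huanwu decoction (BYHWD) against 5 mice with a sham operation. Its 10 libraries were chosen by their group labels from a series of 15, and the other 5 came from mice with ICH given water. Small RNA was sequenced from ipsilateral basal ganglia, collected on day 14 after perfusion with saline under pentobarbital. All mice carried the label WT, and their strain, age and sex, and how the haemorrhage was made, are not given in the sources used here. BYHWD, a herbal mixture of traditional Chinese medicine, was given by gavage once a day at 6.19 g/kg for 14 days, and the sham and ICH mice were gavaged with distilled water over the same period. Treated mice therefore differed from sham mice in the bleed and in the decoction, and since no sham mice received BYHWD the 2 cannot be told apart in this contrast alone. The protocol text says that the RNA came from an exosome pellet, so tissue and vesicle RNA cannot be told apart either.

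MicroRNAs (miRNAs) are short RNAs that Argonaute proteins carry to messenger RNAs, where pairing of the seed, bases 2 to 8 of the miRNA, lowers translation and stability of the target. After a brain bleed, microglia and blood-borne leukocytes clear red cells and dead tissue, and astrocytes and fibroblast-like cells close off the lesion. Several miRNAs are largely restricted to such cell types, among them miR-142 and miR-223 in blood cells and miR-199 and miR-214 in mesenchymal cells. In bulk RNA, more cells of a type and more of a miRNA per cell cannot be told apart.

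At day 14 a small group of miRNAs differed between the treated and the sham basal ganglia. Of 652 miRNAs tested with edgeR's quasi-likelihood test, 13 rose (1.99%) and 2 fell (0.307%), 15 in all (2.30%), at a Benjamini-Hochberg adjusted p under 0.05, which is what "called" means below. The balance of the calls turned with the method and the libraries: DESeq2 called 22 higher and 30 lower, and edgeR called 13 higher and 31 lower without sham 1, 21 higher and 33 lower without sham 3, and 2 higher and 0 lower without sham 4. The miRNAs that rose were miR-155-5p, miR-147-3p and miR-142a-3p of myeloid and leukocyte cells, miR-199a-3p, miR-199b-3p and miR-199b-5p of mesenchymal cells, both arms of miR-10a, miR-21a-3p, miR-374b-5p, miR-374c-5p, miR-450a-5p and miR-450b-5p. Lower in treated mice were miR-379-5p and miR-31-5p. The median log2 fold change over all miRNAs tested was 0.02, and 51.7% lay above 0. Counted once per shared sequence, the miRNAs that rose summed to a mean of 492 CPM (read counts scaled for library size by TMM) per sham library and 1334 CPM per treated library. They were chosen because they rose, so the higher sum gives their abundance and is no separate result. In the same way, the separation of the groups reported below for called miRNAs is no separate result. All 5 treated libraries lay above all 5 sham libraries for 22 of the 652 miRNAs (3.37%), and below them for 3 (0.460%).

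The mature sequences of these miRNAs are shown because they define which names can be told apart by sequencing and which share a seed. They are RefSeq sequences of build GRCm38.p6, written 5′ to 3′ with the seed in capitals, and RefSeq sequences were matched for 553 of the 652 miRNAs tested. The called miR-147-3p and miR-199b-5p had no match and are not shown.
miR-155-5p: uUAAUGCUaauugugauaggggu
miR-142a-3p: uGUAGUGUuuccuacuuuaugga
miR-21a-3p: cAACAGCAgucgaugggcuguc
miR-199a-3p and miR-199b-3p: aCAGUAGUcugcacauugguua
miR-10a-5p: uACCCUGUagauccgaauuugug
miR-10b-5p: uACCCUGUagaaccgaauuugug
miR-10a-3p: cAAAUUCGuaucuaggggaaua
miR-374b-5p: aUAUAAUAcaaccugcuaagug
miR-374c-5p: aUAAUACAaccugcuaagug
miR-450a-5p: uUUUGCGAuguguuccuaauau
miR-450b-5p: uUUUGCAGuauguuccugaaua
miR-379-5p: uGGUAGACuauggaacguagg
miR-31-5p: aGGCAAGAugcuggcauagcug
The sequences of miR-199a-3p and miR-199b-3p are identical, so these names stand for 1 measured molecule. All 20 bases of miR-374c-5p lie within miR-374b-5p from position 3 on, yet the later start gives miR-374c-5p another seed. Their counts were within 1% of each other in every library, so the reads do not say which of the 2 names they belong to. The uncalled miR-10b-5p carries the seed of miR-10a-5p and differs from it by U12A, counted from the 5′ end of miR-10a-5p. The seeds of miR-450a-5p and miR-450b-5p differ by G7A and A8G, counted in the same way. Among the called miRNAs shown, no seed was shared by different sequences.

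**Figure D1:**
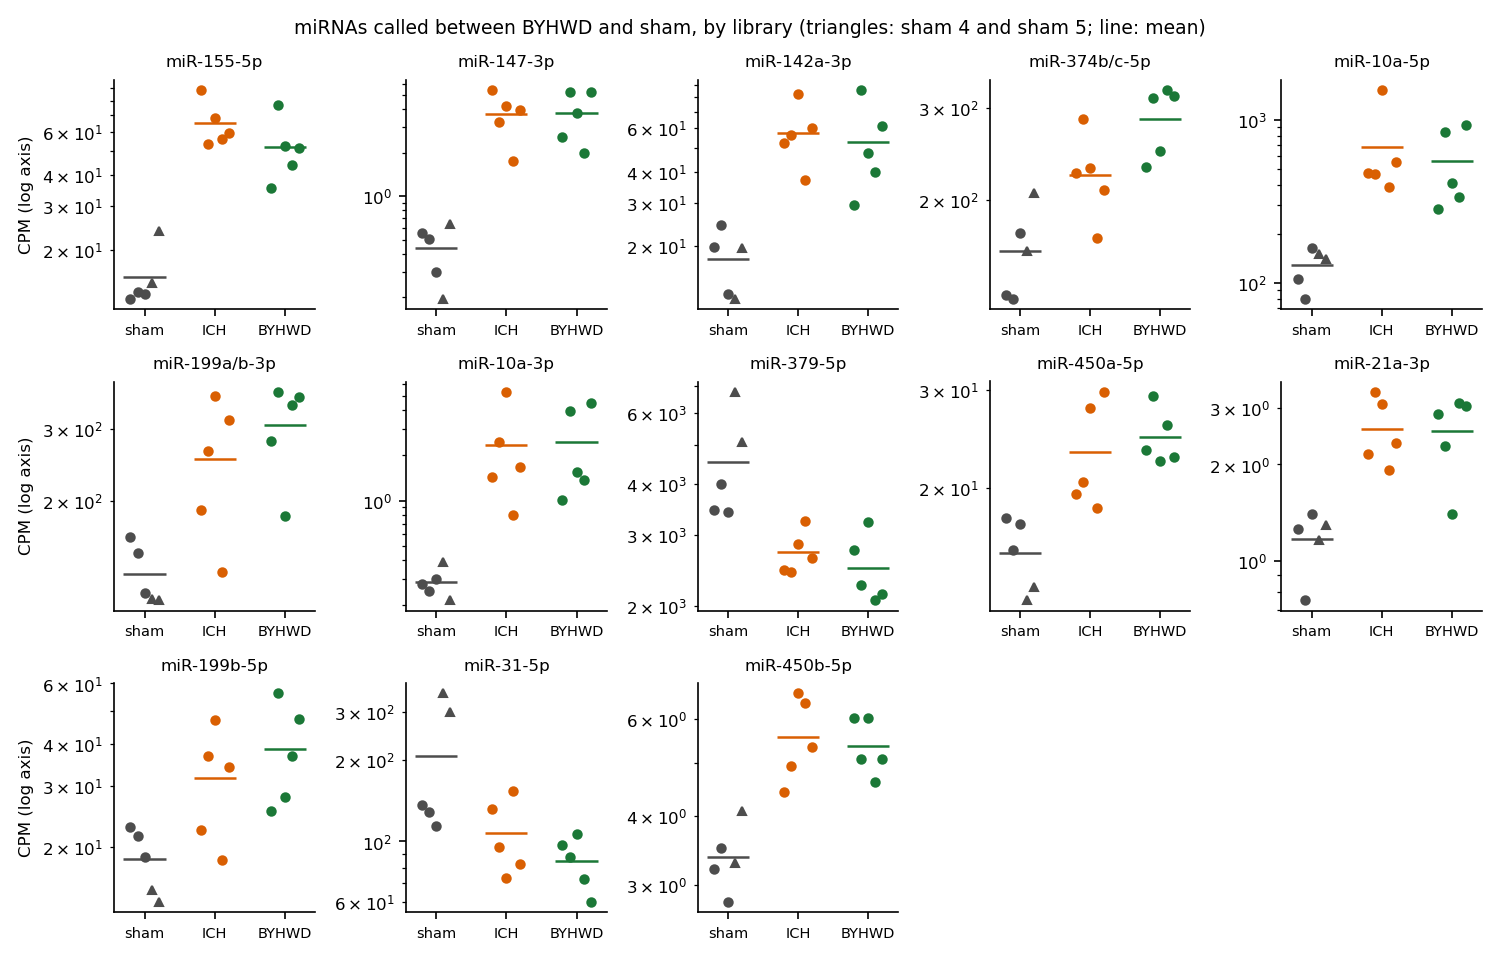
CPM of each called miRNA (log axis) in every library of the sham, ICH and BYHWD groups, 5 libraries each, with the group mean as a line and sham 4 and sham 5 as triangles. Names that share their reads are drawn once. The 5 BYHWD libraries lie above the 5 sham libraries in the panels of miRNAs that rose and below them for miR-379-5p and miR-31-5p. These miRNAs were called on the same libraries, so this separation is no separate result.

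Before the single miRNAs, the libraries themselves need a word. With 1 row kept per miRNA name, the libraries held 4684611 to 9860236 counts, and BYHWD 5 was the shallowest. Sham 4 and sham 5 stood apart from the other 13 libraries on the leading axis of a multidimensional scaling plot, at -0.60 and -0.47 against -0.04 to 0.20. Sham 4 and sham 5 had TMM scaling factors of 0.667 and 0.721, against 0.954 to 1.195 in the other 13. A factor below 1 raises every CPM of a library. Of 420 miRNAs averaging 10 CPM or more on this scale, 19 were more than 2-fold above each of sham 1 to 3 in both sham 4 and sham 5. On the other side, 0 were more than 2-fold below. For example, miR-101a-3p read 14938, 13674 and 15746 CPM in sham 1 to 3, but 137472 and 88982 CPM in sham 4 and 5, against 12032 to 19186 CPM in the BYHWD libraries. Without these 2 sham libraries 6 miRNAs rose (0.909%) and 1 fell (0.152%) of 660 tested. Values without them are therefore given for the called miRNAs and for other results that moved. Both libraries were picked out by their values in these data. Results without them show dependence on these libraries and are no independent test.

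Myeloid and leukocyte miRNAs gave 3 of the calls. The listed members of this group were miR-155, miR-147, miR-142a, miR-223 and miR-150. Of its 9 members tested, 8 had a log2 fold change above 0 (7 under RLE or upper-quartile scaling) and 3 were called higher, with a median of 1.32 against 0.02 over all miRNAs. The shares over all miRNAs were 51.7% above 0 and 1.99% called higher. Without sham 4 and 5 the median was 1.33, with 7 members above 0 and 2 called.

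MiR-155-5p is cut from an exon of the noncoding RNA Mir155hg (chr16:84714140-84714204, plus strand) and is induced in activated macrophages and microglia. It read 12.7, 13.5, 13.3, 14.7 and 23.9 CPM in sham 1 to 5, and 35.6, 76.8, 52.5, 43.8 and 51.5 CPM in BYHWD 1 to 5. Every treated library lay above every sham library, of which sham 5 was the highest. The mean was 15.6 ± 4.68 CPM (SD, n = 5) in sham and 52.0 ± 15.4 CPM (SD, n = 5) in treated mice, a log2 fold change of 1.75 (SE 0.23, adjusted p = 0.000353 by edgeR). The call held in 24 of 24 alternative settings, and without sham 4 and 5 the log2 fold change was 1.97 (SE 0.24, adjusted p = 0.000338 by edgeR).

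MiR-147-3p, which Toll-like receptor signalling induces in mouse macrophages, was scarce and rose the most. Its raw counts were 4, 4, 3, 1 and 3 in sham 1 to 5 and 18, 51, 27, 16 and 26 in BYHWD 1 to 5. The groups did not overlap, though the sham group rests on 15 reads in all. EdgeR put the log2 fold change at 3.08 (SE 0.41, adjusted p = 0.000353 by edgeR), and 3.04 (SE 0.48; adjusted p = 0.00258) without sham 4 and 5. Its hairpin lies in an exon of AA467197 (chr2:122640803-122640881, plus strand). The opposite arm, miR-147-5p, had a log2 fold change of 1.29 and was not called (adjusted p = 0.13).

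MiR-142a-3p comes from a locus active in blood-cell lineages, within an intron of Mir142hg (chr11:87756864-87756927, plus strand). It read 19.8, 24.3, 12.8, 12.2 and 19.6 CPM in sham 1 to 5. In BYHWD 1 to 5 it read 29.3, 85.3, 47.6, 39.7 and 61.0 CPM. BYHWD 1 was the lowest treated library and still lay above the highest sham library. Treated over sham, the log2 fold change was 1.57 (SE 0.29, adjusted p = 0.00964 by edgeR). The call was lost by a narrow margin without sham 4 (adjusted p = 0.0532 by edgeR) and without sham 4 and 5 together (log2 fold change 1.47; adjusted p = 0.0526). The other arm, miR-142a-5p, had a log2 fold change of 0.92 (adjusted p = 0.10), or 1.33 (adjusted p = 0.0526) without sham 4 and 5.

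The granulocyte and monocyte miRNA miR-223-3p was not called, although its groups did not overlap. It read 3.76, 4.00, 3.90, 1.36 and 3.23 CPM in sham 1 to 5 and 4.73, 17.6, 6.86, 7.10 and 13.6 CPM in BYHWD 1 to 5, for a log2 fold change of 1.58 (SE 0.49, adjusted p = 0.0965 by edgeR), or 1.35 (adjusted p = 0.319) without sham 4 and 5. Non-overlap in this direction was seen for 22 of the 652 miRNAs (3.37%). The lymphocyte miRNA miR-150-5p had a log2 fold change of 0.01 (adjusted p = 0.98). The summed level of the 9 members was 307 to 428 CPM in sham libraries and 363 to 826 CPM in treated libraries, so the sums overlapped.

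Red-cell miRNAs, which mark blood left in the tissue, were not called. Of 7 erythroid miRNAs tested (miR-451a, miR-144 and miR-486), 2 had a log2 fold change above 0 (4 under total-count scaling) and 0 were called. The miR-486a and miR-486b names share their reads, so these are 5 sets of reads. Their summed level was 111 to 369 CPM in sham and 119 to 432 CPM in treated libraries. The red-cell miRNA miR-451a had a log2 fold change of -0.17 (SE 0.55, adjusted p = 0.92 by edgeR), with the highest treated value, 295 CPM, in BYHWD 4. The part of blood left in the tissue in the myeloid result was not tested.

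NF-kB-induced and injury-induced miRNAs overlap with the myeloid list through miR-155 and miR-147. Of 10 tested, 9 had a log2 fold change above 0 and 3 were called higher, with a median of 0.85, or 0.95 without sham 4 and 5. Over all miRNAs tested, 51.7% lay above 0 and 1.99% were called higher. The only call outside the myeloid list was that of miR-21a-3p. MiR-21, which rises in many injured tissues, is encoded at an exon of Vmp1 (chr11:86584067-86584158, minus strand). Its minor arm miR-21a-3p read 1.25, 0.751, 1.40, 1.16 and 1.29 CPM in sham and 2.87, 2.28, 1.40, 3.11 and 3.04 CPM in BYHWD 1 to 5. BYHWD 3 lay level with sham 3 at this low abundance, and the other 4 treated libraries were clear of the sham range. Its log2 fold change came to 1.10 (SE 0.27, adjusted p = 0.0474 by edgeR), and the call was lost in 17 of 23 alternative settings, with adjusted p up to 0.203. Among these were the fits without sham 2, sham 4, sham 5, BYHWD 1, BYHWD 2, BYHWD 4 or BYHWD 5, at adjusted p from 0.0745 to 0.144, and the fit without sham 4 and 5 together (log2 fold change 1.12; adjusted p = 0.117). The major arm miR-21a-5p was far more abundant, at 9686 to 15928 CPM in sham and 17799 to 32547 CPM in treated mice. Its groups did not overlap either, yet it was not called, with a log2 fold change of 0.71 (SE 0.21, adjusted p = 0.0933 by edgeR), or 0.79 (adjusted p = 0.161) without sham 4 and 5.

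The NF-kB feedback miRNAs miR-146a-5p and miR-146b-5p turned on the choice of sham libraries. MiR-146a-5p, which in mouse and human cells lowers TRAF6 and IRAK1, read 1372, 1941 and 1633 CPM in sham 1 to 3. In sham 4 and 5 it read 3824 and 5382 CPM, inside or above the treated range of 2662 to 4496 CPM. With all sham libraries the log2 fold change was 0.37 (SE 0.31, adjusted p = 0.54 by edgeR), and without sham 4 and 5 it was 1.14 (SE 0.17; adjusted p = 0.0019). That fit drops the highest sham values of this miRNA, so its adjusted p is no independent test. For miR-146b-5p the sign turned, from -0.47 with all sham libraries to 0.42 without sham 4 and 5, and it was not called in either.

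The mesenchymal list held miR-199a, miR-199b and miR-214. All 5 members tested had a log2 fold change above 0, with 3 called, of which 2 share their reads, and a median of 1.21. Over all miRNAs tested, 51.7% lay above 0 and 2.30% were called. Without sham 4 and 5 the median was 1.08, again with 5 of 5 above 0, but 0 called. With miR-199a-3p and miR-199b-3p counted once, the summed level was 155 to 241 CPM in sham and 269 to 548 CPM in treated libraries, with no overlap. The sum includes the called members, so its separation is no separate result.

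MiR-199a-3p and miR-199b-3p shared 1 set of reads, which can come from 3 hairpins. Mir199a-2 (chr1:162217814-162217923, plus strand) lies in an exon of Dnm3os, a noncoding RNA of connective tissue. Mir199a-1 on chromosome 9 and Mir199b on chromosome 2 lie opposite introns of Dnm2 and Dnm1. The shared reads gave 164, 150, 120, 116 and 115 CPM in sham 1 to 5 and 280, 369, 184, 343 and 360 CPM in BYHWD 1 to 5. BYHWD 3 was the lowest treated library but lay above all sham libraries. EdgeR put the log2 fold change at 1.21 (SE 0.25, adjusted p = 0.0117 by edgeR). The call was lost without sham 4 (adjusted p = 0.0532), sham 5 (0.0530) or BYHWD 5 (0.0553), and without sham 4 and 5 together (log2 fold change 1.08; adjusted p = 0.0975).

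Of the 5p arms, which carry counts of their own, 1 was called. MiR-199b-5p read 22.9, 21.5, 18.6, 14.9 and 13.8 CPM in sham and 25.4, 56.1, 28.0, 36.9 and 47.2 CPM in BYHWD 1 to 5, a log2 fold change of 1.07 (SE 0.27, adjusted p = 0.0474 by edgeR). That call was held in 8 of 24 alternative settings and was lost without sham 4, sham 5, BYHWD 2, BYHWD 4 or BYHWD 5, with adjusted p up to 0.15. Without sham 4 and 5 together the log2 fold change was 0.88 (adjusted p = 0.201). MiR-199a-5p had a log2 fold change of 1.24 and missed the threshold (adjusted p = 0.0556), as did miR-214-3p of the Dnm3os transcript at 1.21 (adjusted p = 0.0989), and without sham 4 and 5 their values were 0.99 (adjusted p = 0.242) and 1.53 (adjusted p = 0.115). The smooth muscle miRNAs miR-143-3p and miR-145a-5p, which mark another perivascular cell type, were not called, with log2 fold changes of 0.19 (adjusted p = 0.73) and 0.46 (adjusted p = 0.12), or 0.62 and 0.42 without sham 4 and 5.

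Both arms of miR-10a rose. The hairpin (chr11:96317165-96317274, plus strand) lies in the Hoxb gene cluster, which is active in the hindbrain and trunk and largely silent in the forebrain. MiR-10a-5p read 105, 79.5, 164, 150 and 140 CPM in sham 1 to 5. In BYHWD 1 to 5 it read 283, 835, 410, 336 and 928 CPM. The treated group was uneven, with BYHWD 2 and 5 well above the other 3 and all 5 above sham. Treated over sham, the log2 fold change was 2.13 (SE 0.42, adjusted p = 0.0117 by edgeR). It was 2.25 (SE 0.57; adjusted p = 0.0975) without sham 4 and 5, and the call was also lost without sham 4 alone (0.0532), sham 5 alone (0.0530) or BYHWD 5 (0.0553).

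The other arm, miR-10a-3p, was read 2, 2, 3, 2 and 1 times in sham 1 to 5 and 7, 38, 11, 11 and 22 times in BYHWD 1 to 5. BYHWD 2 and 5 again had the most reads. Its log2 fold change came to 3.01 (SE 0.64, adjusted p = 0.0152 by edgeR). The call was lost without sham 4 (0.0532), sham 5 (0.0530), BYHWD 2 (0.0685) or BYHWD 5 (0.0553), and without sham 4 and 5 together (log2 fold change 3.05; adjusted p = 0.0975).

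The seed-sharing miR-10b-5p, from an intron of Hoxd3 and Hoxd4, did not pass the test. It read 63.1, 47.9, 106, 141 and 64.1 CPM in sham and 148, 88.8, 87.9, 78.2 and 66.5 CPM in treated mice, so the groups overlapped. EdgeR put the log2 fold change at 0.15 (SE 0.27, adjusted p = 0.82 by edgeR). Choroid plexus miRNAs, which mark the secretory tissue inside the brain ventricles, varied widely between libraries in the same samples. Their summed level was 1877 to 18824 CPM in sham and 6160 to 15797 CPM in treated libraries. All 7 members had a log2 fold change above 0 (median 0.56, or 0.38 without sham 4 and 5) and 0 were called. Library by library, the choroid plexus sums were 2057, 18824, 3799, 9987 and 1877 CPM in sham 1 to 5 and 6160, 9431, 15797, 6588 and 12772 CPM in BYHWD 1 to 5. The summed miR-10 level in the same libraries was 169, 128, 270, 291 and 204 CPM in sham 1 to 5 and 431, 928, 500, 416 and 999 CPM in BYHWD 1 to 5. In ICH 1 to 5 the choroid plexus sums were 8689, 5089, 18102, 2048 and 10200 CPM beside miR-10 sums of 551, 549, 1617, 469 and 654 CPM. The 5 ICH libraries stood in the same order in both sums, while sham 2 had the highest sham choroid plexus sum and the lowest miR-10 sum. Among treated mice BYHWD 1 and 4 were low in both, BYHWD 5 had the highest miR-10 sum and the next-highest choroid plexus sum, and BYHWD 3 had the highest choroid plexus sum with a middle miR-10 sum. The part of choroid plexus RNA in the miR-10a result was not tested.

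X-linked miRNAs gave 4 of the calls, among them miR-374b-5p and miR-374c-5p, which share their reads. Of 58 miRNAs tested that are encoded only on the X chromosome, 34 had a log2 fold change above 0, with a median of 0.06. The shares over all 652 miRNAs were 2.30% called and 51.7% above 0, with a median of 0.02. MiR-374b-5p, from an intron of the noncoding RNA Ftx (chrX:103573060-103573154, minus strand), read 132, 129, 173, 159 and 206 CPM in sham 1 to 5. In BYHWD 1 to 5 it read 230, 312, 248, 324 and 315 CPM. The groups did not overlap and the spread within each was small, at 160 ± 31.9 CPM in sham and 286 ± 43.3 CPM in treated mice (SD, n = 5). Treated over sham, the log2 fold change was 0.84 (SE 0.17, adjusted p = 0.0117 by edgeR), and 0.98 (SE 0.19; adjusted p = 0.011) without sham 4 and 5. The call was lost without sham 4 alone (0.0532) or BYHWD 5 (0.0553).

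MiR-374c lies on the other strand of the same stretch (chrX:103573085-103573133, plus strand), and its 5p arm carried the same reads and the same result. Its 3p arm, which has reads of its own, had a log2 fold change of 0.32 (adjusted p = 0.2), and miR-421-3p of the same Ftx intron had one of -0.02 (adjusted p = 0.97).

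Further along the X chromosome lies a cluster that encodes miR-450a and miR-450b beside miR-322, miR-351, miR-503 and miR-542. Of its 8 members tested, 6 were above 0 and 2 called, with a median of 0.30, against 51.7% and 2.30% over all miRNAs. MiR-450a-5p read 17.7, 15.5, 17.3, 12.6 and 13.3 CPM in sham and 23.4, 29.2, 22.4, 25.9 and 22.7 CPM in BYHWD 1 to 5. All treated libraries lay above all sham libraries. Its log2 fold change came to 0.69 (SE 0.16, adjusted p = 0.0377 by edgeR).

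MiR-450b-5p, scarcer, read 3.21, 3.504, 2.80, 3.30 and 4.09 CPM in sham and 6.02, 5.07, 6.02, 4.61 and 5.07 CPM in treated mice. Its groups also stood apart, with a log2 fold change of 0.68 (SE 0.17, adjusted p = 0.0474 by edgeR). Neither call was stable: that of miR-450a-5p held in 10 of 24 alternative settings and was lost without sham 4, sham 5 or any single BYHWD library (adjusted p from 0.0513 to 0.111), and that of miR-450b-5p in 2 of 23 and in 0 of the 10 that left out 1 library. Their fold changes moved little, to 0.55 and 0.75 without sham 4 and 5. The neighbour miR-351-5p lay just past the threshold at a log2 fold change of 0.50 (SE 0.13; adjusted p = 0.0516).

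The miRNAs that fell rested in part on sham 4 and 5. MiR-379-5p opens the large maternally expressed miRNA cluster of the imprinted Dlk1-Dio3 region (chr12:109709060-109709125, plus strand), which is active in neurons. It read 3444, 4011, 3403, 6752 and 5077 CPM in sham 1 to 5, and 2749, 2257, 3217, 2063 and 2146 CPM in BYHWD 1 to 5. BYHWD 3 came close to sham 3, but the groups did not overlap, and sham 4 and 5 were the highest libraries. EdgeR put the log2 fold change at -0.87 (SE 0.19, adjusted p = 0.0178 by edgeR), and -0.55 (SE 0.15; adjusted p = 0.0975) without sham 4 and 5. The call was also lost without sham 4 alone (0.0532), sham 5 alone (0.0530), BYHWD 2 (0.0687), BYHWD 4 (0.0619) or BYHWD 5 (0.0553).

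MiR-31-5p (chr4:88910557-88910662, minus strand, in an exon of a long noncoding RNA) read 136, 128 and 114 CPM in sham 1 to 3. In sham 4 and 5 it read 352 and 300 CPM, and in BYHWD 1 to 5 it read 97.2, 87.3, 106, 72.5 and 59.8 CPM. The treated libraries lay below all sham libraries, most of the distance being to sham 4 and 5. Treated over sham, the log2 fold change was -1.28 (SE 0.32, adjusted p = 0.0474 by edgeR), and -0.58 (SE 0.23; adjusted p = 0.242) without them. Leaving out sham 4, sham 5, BYHWD 1, BYHWD 2, BYHWD 4 or BYHWD 5 alone also ended the call, at adjusted p from 0.0767 to 0.129. The other arm, miR-31-3p, had a log2 fold change of -0.12 (adjusted p = 0.87).

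No other miRNA of the Dlk1-Dio3 region was called with all libraries in the fit. Over all miRNAs tested, 2.30% were called, 21.2% had an unadjusted p under 0.05 and 51.7% had a log2 fold change above 0. In the miR-379/410 cluster 41 of 63 members had a log2 fold change below 0, 1 was called, 17 had an unadjusted p under 0.05 and the median was -0.13. The lowest member was miR-380-5p, at 326, 202, 285, 1334 and 753 CPM in sham 1 to 5 and 204 to 282 CPM in treated mice. Sham 4 and 5 were again the highest libraries, and its log2 fold change was -1.28 (SE 0.39; adjusted p = 0.0946), or -0.19 without them. Under scaling by total counts 33 of the 63 were below 0 and the median was -0.01, a setting that raised the median of all miRNAs by 0.13. MiR-411-5p, from the hairpin next to miR-379, read 2901 to 4225 CPM in sham and 2193 to 2982 CPM in treated mice, for a log2 fold change of -0.49 (SE 0.13, adjusted p = 0.0556 by edgeR), or -0.51 (adjusted p = 0.0975) without sham 4 and 5. In the Meg3 and Rtl1as clusters 13 of 23 members lay below 0 with a median of -0.13 and a lowest value of -0.78, for miR-493-3p (adjusted p = 0.10), and miR-127-3p, the most abundant of them, had a log2 fold change of 0.05 (adjusted p = 0.90).

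**Figure D2:**
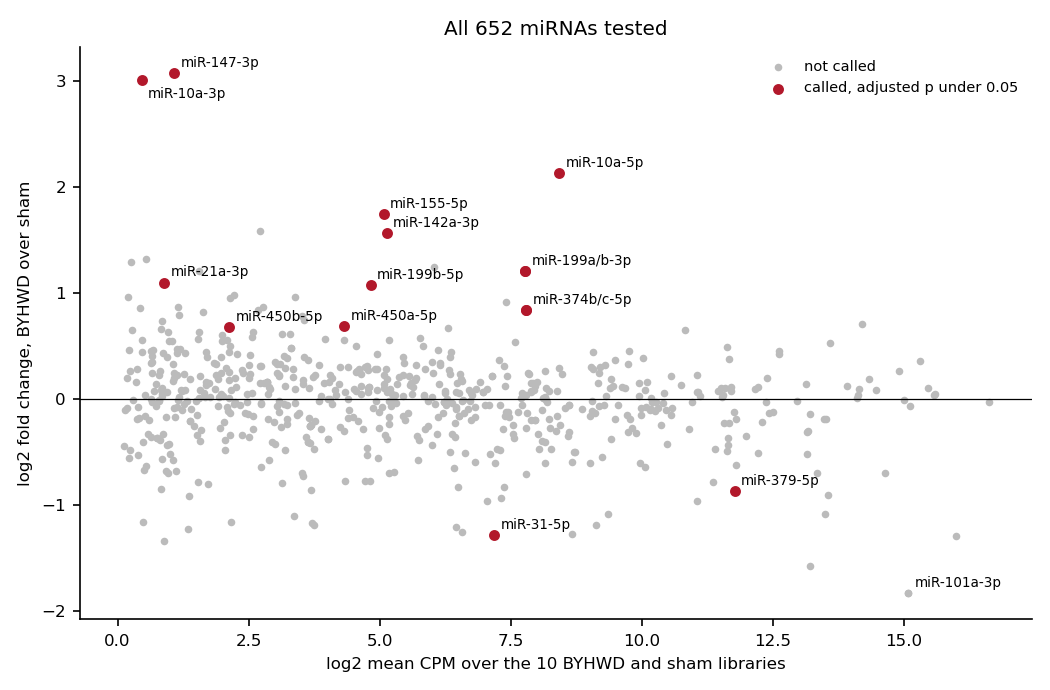
Log2 fold change of BYHWD over sham against log2 mean CPM over the 10 libraries, 1 point per miRNA tested (652), with called miRNAs in red. Called miRNAs lie at low and middle abundance apart from miR-379-5p, and miR-101a-3p (log2 fold change -1.83, adjusted p = 0.0933) is marked as an abundant miRNA that was not called.

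No miRNA of the neuronal and oligodendrocyte lists was called in either direction. Of 18 neuronal miRNAs 16 had a log2 fold change below 0, with a median of -0.23, or -0.29 without sham 4 and 5, and 14 of 18 lay below 0 under total-count scaling. MiR-9-5p, the most abundant miRNA of the 10 libraries, had a mean of 101894 CPM in sham and 99842 CPM in treated mice, for a log2 fold change of -0.03 whose 2-SE interval ran from -0.28 to 0.22. The neuronal miRNA miR-124-3p had a log2 fold change of -0.22 (SE 0.14, adjusted p = 0.42 by edgeR). MiR-128-1-5p, a minor arm of neuronal miR-128, read 11.1 to 19.4 CPM in sham and 5.47 to 11.6 CPM in treated mice, with a log2 fold change of -0.72 (SE 0.21; adjusted p = 0.0933), or -0.74 (adjusted p = 0.161) without sham 4 and 5. Of 5 oligodendrocyte miRNAs 4 were above 0, with a median of 0.37, or 0.25 and 5 above 0 without sham 4 and 5. The exception with all libraries was the most abundant of them, miR-219a-2-3p, at a log2 fold change of -0.69. The summed oligodendrocyte level was 7155 to 11210 CPM in sham 1 to 3 and 24230.5 and 20805 CPM in sham 4 and 5. In treated libraries it was 8973 to 10422 CPM. For the endothelial miRNA miR-126a-3p the log2 fold change was -0.19 (adjusted p = 0.51).

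The let-7 family, whose 5p arms restrain growth programmes in differentiated cells, leaned up by a small amount. Its list includes the 3p arms and miR-98. Since let-7a-1-3p and let-7c-2-3p share their reads, its 21 names are 20 sets of reads. All 21 members tested had a log2 fold change above 0 with all sham libraries, but 12 did without sham 4 and 5 and 19 did under RLE scaling. The median was 0.15, with 0 called. The miR-30 family (median -0.24) and the miR-101 family (median -1.83) leaned down with all sham libraries, and their medians were -0.12 and 0.03 without sham 4 and 5. Of the 3 miR-101 names, miR-101a-3p and miR-101c share their reads and set the median, and miR-101b-3p was at -1.09 with all sham libraries.

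**Figure D3:**
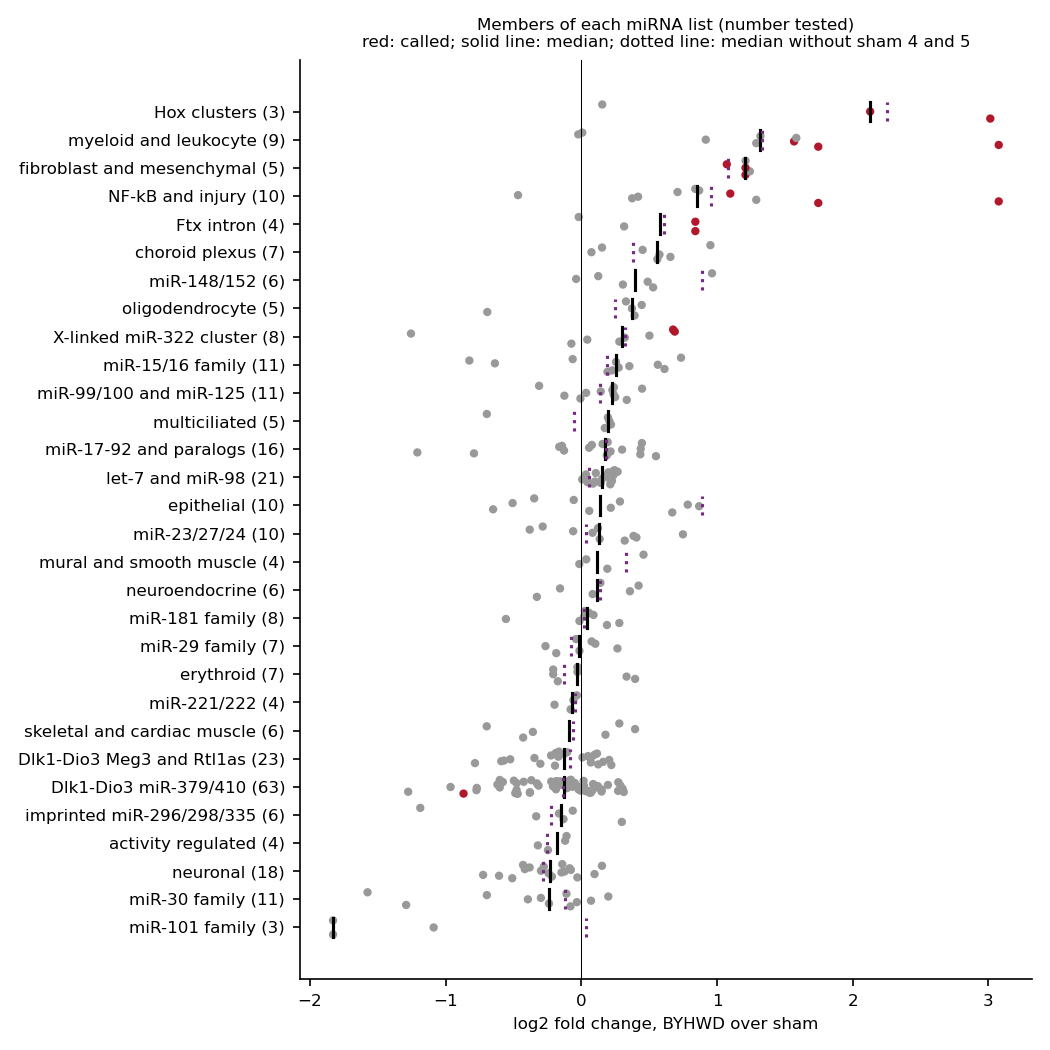
Log2 fold change of BYHWD over sham for the members tested of each miRNA list with at least 3 of them, called members in red. The solid line is the list's median and the dotted line its median without sham 4 and 5; the Hox, myeloid and mesenchymal lists lie furthest to the right in both, while the miR-101 median moves from -1.83 to 0.03.

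Leaving out sham 4 and 5 changed the falling side of the comparison more than the rising side. At an unadjusted p under 0.05, which 21.2% of the miRNAs reached, 61 miRNAs were higher and 77 lower. Of the 61 higher ones 38 still had such a p without the 2 libraries, and 0 had a log2 fold change less than 0.5 times as large. Of the 77 lower ones 20 kept such a p and 43 had a log2 fold change less than 0.5 times as large. The miRNAs called in both fits were miR-155-5p, miR-147-3p, miR-374b-5p and miR-374c-5p.

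The fit without sham 4 and 5 added 3 miRNAs to the calls, whose sequences follow with those of relatives that share a seed.
miR-146a-5p: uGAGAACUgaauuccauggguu
miR-152-3p: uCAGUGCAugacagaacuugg
miR-148a-3p: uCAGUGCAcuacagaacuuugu
miR-148b-3p: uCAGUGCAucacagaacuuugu
miR-540-3p: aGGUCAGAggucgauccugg
MiR-152-3p, encoded in an intron of Copz2, belongs to the family of miR-148 and miR-152 that targets the DNA methyltransferase Dnmt1. It read 249, 278, 457, 1476 and 878 CPM in sham 1 to 5 and 858, 659, 618, 660 and 845 CPM in BYHWD 1 to 5. The treated libraries lay above sham 1 to 3 but within the range that sham 4 and 5 extend. Its log2 fold change came to 1.14 (SE 0.22, adjusted p = 0.011 by edgeR) without sham 4 and 5, and 0.12 (adjusted p = 0.91) with them. Here too the fit drops the highest sham values, so its adjusted p is no independent test.

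Its seed relatives miR-148a-3p and miR-148b-3p had log2 fold changes of 0.88 and 0.91 without sham 4 and 5 and were not called. The family's median moved from 0.40 to 0.89. MiR-540-3p of the Meg3 cluster was lower without sham 4 and 5 (log2 fold change -0.89, SE 0.19, adjusted p = 0.0234 by edgeR) and not called with them (-0.57; adjusted p = 0.15). It read 89.8, 94.4 and 52.7 CPM in sham 1 to 3, 38.8 and 41.7 CPM in sham 4 and 5, and 35.2 to 51.1 CPM in treated mice. Sham 4 and 5 lay within the treated range for this miRNA.

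**Figure D4:**
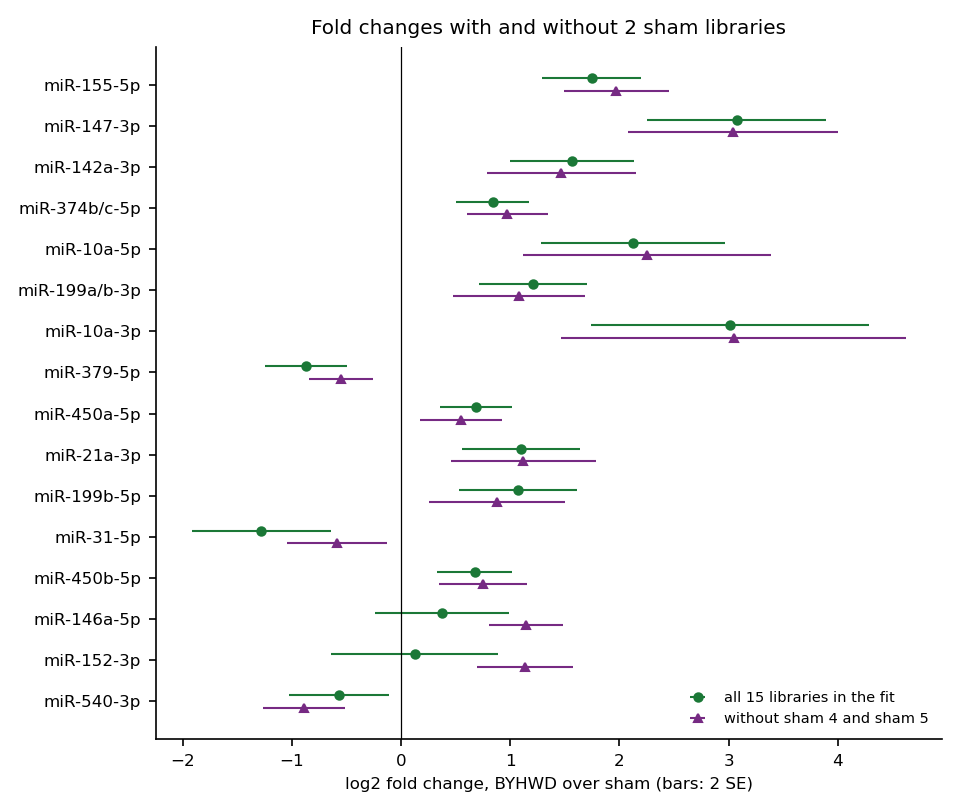
Log2 fold change of BYHWD over sham with 2-SE bars for the miRNAs called with all libraries (circles) and in the fit without sham 4 and 5 (triangles). For miR-31-5p the value moves from -1.28 to -0.58 and for miR-152-3p from 0.12 to 1.14, while miR-155-5p, miR-147-3p and miR-374b-5p lie far from 0 in both.

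The untreated ICH group shows whether the treated values differ from those after the bleed alone. ICH against sham uses the same sham libraries, so its values are set beside those above and are no independent support. In that comparison 47.7% of the miRNAs had a log2 fold change above 0, 5 rose (0.767%) and 0 fell by edgeR, and all 5 were among the miRNAs that rose in treated mice: miR-155-5p, miR-147-3p, miR-142a-3p, miR-10a-5p and miR-10a-3p. DESeq2 called 20 higher and 28 lower, and edgeR without sham 3 called 14 higher and 17 lower. The other 10 called in treated mice were not called in untreated mice, which is not a test of a difference between the groups. Their log2 fold changes in ICH against sham were of the same sign, such as 0.93 for miR-199a-3p (adjusted p = 0.0687), 1.13 for miR-21a-3p (adjusted p = 0.0502) and -0.74 for miR-379-5p (adjusted p = 0.0687).

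Treated and untreated mice with haemorrhage were then compared directly. With edgeR 0 of 652 miRNAs were called, and the lowest adjusted p was 0.916. At an unadjusted p under 0.05 there were 31 (4.75%), and DESeq2 and limma-voom called 0 as well, with 29 and 27 at such a p. The 2-SE interval of the difference held 0 for 13 of the 15 called miRNAs. For miR-155-5p, which averaged 65.0 CPM in untreated and 52.0 CPM in treated mice, the log2 difference was -0.32, with an interval of -0.76 to 0.12. For miR-147-3p it was 0.01, with an interval of -0.60 to 0.61. Intervals of this width do not show that the levels are equal.

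The exceptions were miR-374b-5p and miR-374c-5p, which share their reads. MiR-374b-5p averaged 223.3 ± 42.2 CPM in untreated and 286 ± 43.3 CPM in treated mice (SD, n = 5). The 5 untreated libraries read 224.4, 285, 230, 169 and 208 CPM, which overlap the treated range of 230 to 324 CPM. The log2 difference was 0.36 (interval 0.02 to 0.69), which did not pass the adjustment (adjusted p = 0.916 by edgeR).

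**Figure D5:**
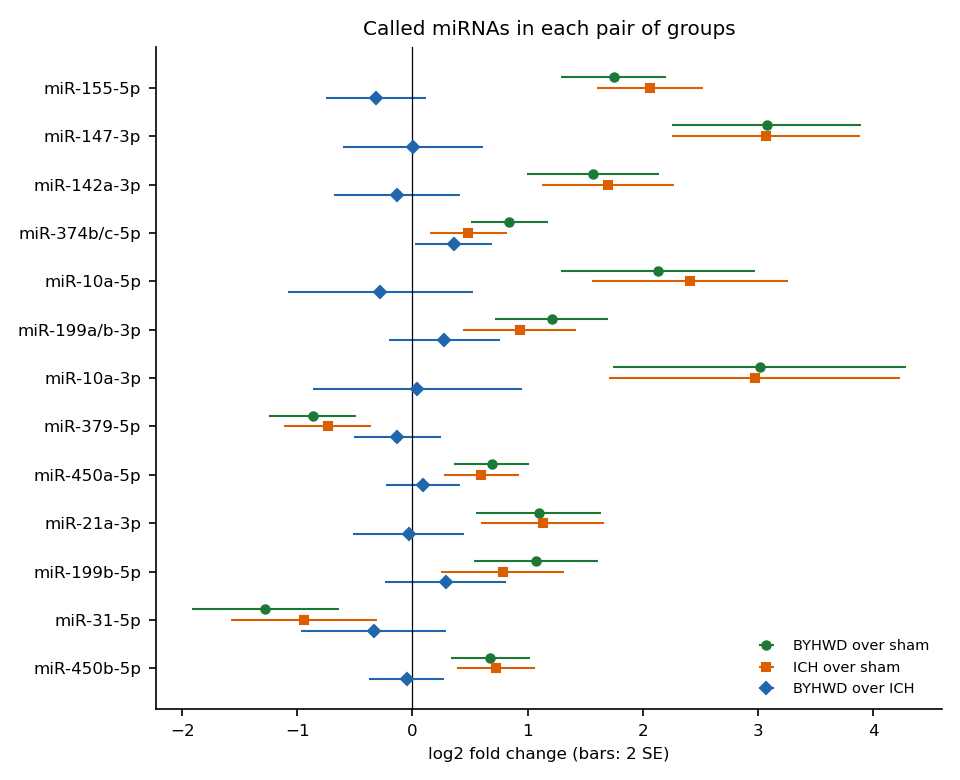
Log2 fold changes with 2-SE bars of the called miRNAs for BYHWD over sham, ICH over sham and BYHWD over ICH. The bars of BYHWD over ICH cross 0 except for miR-374b/c-5p, at 0.36, and both comparisons with sham use the same 5 sham libraries.

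Treated mice also varied among themselves. Counting the names that share reads once, BYHWD 2 had the highest treated value for 6 of the 11 miRNAs that rose and BYHWD 1 the lowest for 6. Over miRNAs of at least 10 CPM the median coefficient of variation was 15.8% in treated, 14.1% in untreated and 22.5% in sham libraries, or 17.4% in sham 1 to 3. The median SE of a log2 fold change was 0.18, and for 336 of the 420 miRNAs the 2-SE interval lay between -1 and 1.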

How the data were processed

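Small RNA libraries of 15 mouse samples (5 sham, 5 ICH, 5 BYHWD) were analysed from the deposited raw counts per mature miRNA, which the authors did not normalize. The submitters' processing notes name cutadapt, Bowtie and edgeR, without versions, and the human build hg38, although the samples and miRNA names are mouse. The sources used here do not say how multi-mapping reads were assigned. In 15 of 15 tables the first count is a stray library number, so that 929 values face 928 names, and counts were assigned to the name 1 row above. With that move 65 of 74 row pairs of the same name (87.84%) differed by less than 0.1 in log2 count, against 23 of 87 (26.44%) as printed. Of the 683 distinct names, each was represented by its highest-total row (66.6 to 74.8% of the counts), and 36 names share their reads with another name to within 1%.

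Counts were tested with edgeR 4.0.16 under R 4.3.3 (robust quasi-likelihood F-test after TMM scaling and a filterByExpr filter on the groups, 15 libraries in 1 fit of 3 groups, no covariates), with Benjamini-Hochberg adjustment over 652 miRNAs and a threshold of 0.05. Every adjusted p is from this test unless another tool is named. SE is the log2 fold change divided by the root of F, and CPM are computed on TMM-scaled library sizes. The test was checked on simulated counts for this comparison in which 200 of 652 miRNAs were altered. It found 46.3% of the 1.5-fold, 89.6% of the 2-fold and 100% of the 4-fold changes, and 4.85% of its calls were false. Apart from the altered miRNAs, the simulated libraries varied independently around 1 mean per miRNA, so none stood apart as sham 4 and sham 5 did. Neither the share of false calls nor the recovery with such libraries was tested. The 200 altered miRNAs also outnumber the 15 called in the data, and recovery with fewer altered miRNAs was not tested. Mice are taken as separate samples from the labels' replicate numbers, and no label says that they came from separate litters or days.

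The miRNAs, lists and alternatives were chosen with earlier results of these data known. Named miRNAs are all called ones, the 10 uncalled with the smallest p and at least 10 CPM, other arms and list relatives of called ones (up to the 4 most abundant), the 2 most abundant of each other list, the 5 most abundant of all, and those called without sham 4 and 5; a few further list members are named that were chosen after their values were seen. Alternatives were other scalings, DESeq2 1.42.0, limma-voom 3.58.1 with and without quality weights, other filters, other treatments of repeated rows, fewer libraries and a replicate block. MiRNA and gene positions are from RefSeq and GENCODE on GRCm38.p6.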

Additional observations from a re-analysis of the deposited data

Results flagged for a closer look

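Among the named miRNAs, 194 groups of 5 libraries were screened for 1 library far from the other 4 by Dixon's ratio (critical value 0.71), a rule that chance meets in about 1 of 20 groups; 8 groups met it. In sham 5, miR-155-5p stood at 23.9 CPM, above the other sham libraries. Sham 3 stood low for miR-21a-5p at 9686 CPM and for miR-29a-3p at 9630 CPM, and high for miR-100-5p at 22468 CPM. BYHWD 1 stood high among treated libraries for miR-10b-5p at 148 CPM, miR-143-3p at 33558 CPM and miR-185-5p at 1818 CPM. BYHWD 4 stood high for the red-cell miRNA miR-451a at 295 CPM. Their causes were not tested.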

How the results depend on the processing

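Under 24 alternative settings the comparison of BYHWD with ICH had 0 calls throughout. None of these settings left out a single ICH library. For BYHWD over sham, 13 miRNAs rose and 2 fell. The number that rose was 22 with DESeq2, 20 with all rows kept, 7 with shared names merged, and 6 both with voom quality weights and without sham 4 and 5. Leaving out 1 library gave 2 (sham 4) to 21 (sham 3), with 3 without BYHWD 5, 5 without sham 5 and 8 without BYHWD 2. The number that fell was 30 with DESeq2, 1 with RLE scaling, limma-voom, no filter or without sham 4 and 5, and 0 with quality weights or with only the libraries compared. Leaving out 1 library gave 0 to 33 (33 without sham 3, 31 without sham 1, 9 without sham 2, 4 without BYHWD 3, 1 without BYHWD 1 and 0 without sham 4, sham 5, BYHWD 2, BYHWD 4 or BYHWD 5). Of all calls, 86.7% were higher in the main setting, against 42.3% with DESeq2 and 75% with upper-quartile scaling. Total-count scaling raised the median log2 fold change by 0.13 and gave 16 higher and 3 lower.

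For ICH over sham, 5 rose and 0 fell. The number that rose was 20 with DESeq2, 10 with upper-quartile scaling, 9 with total-count scaling and 3 at a mean of at least 10 CPM, and 4 to 14 with 1 library left out. The number that fell was 28 with DESeq2, 1 without sham 4 and 5, and 0 to 17 with 1 library left out. The library left out was a sham or BYHWD library, so dependence on a single ICH library was not tested. The causes were not tested.

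Replicate numbers did not pair the mice: deviations of same-numbered BYHWD and sham libraries correlated at -0.25, 0.27, -0.03, -0.13 and -0.35. With a replicate block 9 rose and 0 fell over sham in treated mice, and 5 and 0 in untreated mice.

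A single miRNA was taken as reversed where its sign turned and it was called, or over 1 SE from 0, in either setting. Without sham 4 and 5 the log2 fold changes that turned were miR-101a-3p and miR-101c (0.033 each), miR-146b-5p (0.42), miR-150-5p (-0.19), miR-181b-5p (-0.12), miR-183-5p (0.97), miR-203-3p (0.35), miR-219a-2-3p (0.14), miR-322-3p (0.29) and miR-542-3p (0.25). Of these, miR-101a-3p and miR-101c share their reads. With 1 library left out, miR-7a-5p ranged from -0.13 to 0.54 and miR-7b-5p from -0.041 to 0.67, both negative without BYHWD 5. Of the other values of named miRNAs, 2108 kept their sign or lay within 1 SE of 0 and stayed on their side of the threshold, 117 lost a call and 72 gained one. Depth limited miRNAs below 10 CPM, which include 4 of the 15 called.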
